A study of Mus musculus with 12 samples.

Results

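The genes described here were the subunits of activator protein 1 (AP-1) in the JUN family (Jun, Junb and Jund) and the FOS family (Fos, Fosb, Fosl1 and Fosl2), with Atf3 and the small MAF genes Maff and Mafk. They were taken by name, 10 of the 49315 gene identifiers in the count tables, and all 10 had enough counts to be tested among 17416 genes. RNA-seq counts came from mouse adult fibroblasts (MAFs), isolated as primary cells out of the ears of adult female C57BL/6J mice (WT) and of Bmal1-/- mice (KO), which lack the clock factor BMAL1 in every cell. Control cells were sham irradiated (WTC and KOC) and senescent cells received 20 Gy of X-rays (WTS and KOS). Each of the 4 groups had 3 libraries. Per the study's methods, irradiated cells were then cultured for weeks, so collection did not follow soon after the X-rays. All cells grew at 3% oxygen and all were treated with 100 nM dexamethasone, a glucocorticoid that synchronises the clock, and collected 12 h later, so no group was free of it. The sources used here do not say whether the 3 libraries of a group came from separate mice or cultures, and p-values measure only the spread between these libraries.

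AP-1 is a dimer of basic leucine zipper (bZIP) proteins. JUN proteins pair with themselves or with FOS proteins and bind a short palindromic DNA site, whereas FOS proteins need a JUN partner. FOS and FOSB carry strong activation domains, FOSL1 (FRA-1) and FOSL2 (FRA-2) lack them, and JUNB and JUND often act more weakly than JUN. Small MAF proteins have a bZIP domain and no activation domain, and ATF3 is induced by many stresses. Most of these genes are immediate early genes, which mitogens and stress switch on through MAP kinases.

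Promoter sequences were examined because several members moved together and because BMAL1 with CLOCK binds the E-box. RefSeq windows of 300 bases (250 before to 50 after an annotated start, GRCm38.p6) were found for 9 of the 10 genes, 11 windows in all, with 3 for Maff. Fosl1 had no entry. Both strands were searched for the AP-1 site (TGACTCA or TGAGTCA), the cAMP response element (CRE, TGACGTCA), the variant AP-1 site known from the Jun promoter (TGACATCA), the E-box (CACGTG) and, by name, the CArG box of serum response factor. No 2 matches overlapped. The windows with a match, except that of the third Maff start, are shown 5′ to 3′ on the gene's strand with each match in capitals. They are Jun at chr4:95052173-95052472 (minus strand), the second Maff start at chr15:79347270-79347569 (plus strand) and Mafk at chr5:139791286-139791585 (plus strand).
Jun: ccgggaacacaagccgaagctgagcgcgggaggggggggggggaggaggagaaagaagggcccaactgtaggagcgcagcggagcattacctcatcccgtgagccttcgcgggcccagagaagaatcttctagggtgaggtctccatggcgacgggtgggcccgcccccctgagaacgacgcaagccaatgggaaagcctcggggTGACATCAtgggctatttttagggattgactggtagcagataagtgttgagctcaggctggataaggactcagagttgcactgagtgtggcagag
Maff: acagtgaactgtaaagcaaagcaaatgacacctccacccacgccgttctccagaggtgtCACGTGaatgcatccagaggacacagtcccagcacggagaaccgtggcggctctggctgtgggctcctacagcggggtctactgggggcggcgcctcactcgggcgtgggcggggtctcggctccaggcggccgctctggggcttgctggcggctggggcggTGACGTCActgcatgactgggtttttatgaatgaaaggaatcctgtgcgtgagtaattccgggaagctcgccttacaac
Mafk: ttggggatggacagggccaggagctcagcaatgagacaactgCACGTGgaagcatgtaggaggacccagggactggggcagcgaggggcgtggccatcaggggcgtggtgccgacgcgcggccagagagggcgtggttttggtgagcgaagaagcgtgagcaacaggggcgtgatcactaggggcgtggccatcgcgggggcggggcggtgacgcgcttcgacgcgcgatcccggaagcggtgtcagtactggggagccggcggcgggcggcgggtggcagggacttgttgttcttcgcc
With the start site as 0, the Jun window held the variant AP-1 site at -45. The Maff window held a CRE at -29 and an E-box at -191, the third Maff window held the variant AP-1 site at -45, and the Mafk window held an E-box at -208. The other 7 windows searched, those of Junb, Jund, Fos, Fosb, Fosl2, Atf3 and the first Maff start, held no match. Sites more than 250 bases before a start, for Fos as for the others, were not searched. The Jund window, chr8:70697489-70697788, ended upstream of the first base of Jund in the GENCODE annotation, 70698949. Sequence around that base was not searched. Of all 32851 windows, 7.15% held the E-box, 5.20% the AP-1 site, 3.62% the variant site, 1.79% the CRE and 1.63% the CArG box. These matches are letters in a window and were not tested for binding or for a link to RNA levels. Maff had more windows searched than any other gene, and so more room for a match.

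Levels are given as CPM, the count per 1000000 of a library's TMM-scaled total. Total counts were 23923030 to 31736083, and at these depths 3 counts, the detection floor, equalled 0.101 to 0.135 CPM. A gene "passed" where its adjusted p was under 0.05 and was "called" where its log2 fold change was also over 1 in size. The targeted gene, Arntl (Bmal1), was lower in KOC than in WTC cells by a log2 fold change of -1.26 ± 0.086 (SE, adjusted p = 2.0e-09), with reads still at 11.8 to 15.2 CPM in KOC cells. In senescent cells the difference was smaller, at 25.3 to 27.5 CPM in KOS and 35.2 to 37.4 CPM in WTS cells, a log2 fold change of -0.44 ± 0.080 (adjusted p = 0.000329). WTC replicate 3 stood apart from the other 11 libraries on principal component 4 (45.05 against -15.99 to 9.54), and results that rest on it are given with and without it. All 8 fibroblast markers were detected, with summed levels of 19910 to 20700 CPM in WTC, 9579 to 9966 in WTS, 24830 to 26190 in KOC and 11500 to 11890 in KOS libraries. The single markers were split. With senescence, 4 passed higher and 4 lower in WT cells, and 2 higher and 5 lower in KO cells. In WT cells Col1a1 fell from a mean of 7323 to 1750 CPM, and Dcn rose from 28.9 to 298.9 CPM. The 12 chondrocyte markers summed to 7803 to 9789 CPM in WTC, 2048 to 2361 in WTS, 5065 to 7095 in KOC and 641.1 to 737.2 in KOS libraries, so their sums moved with senescence and with genotype. With senescence in WT cells, 10 of the 11 tested passed lower and 1 higher (Comp, from a mean of 55.9 to 84.5 CPM). The interaction was passed by 10 of the 11 chondrocyte markers tested, all 10 lower. Sums over keratinocyte, macrophage, endothelial, melanocyte and skeletal muscle markers were at most 58.92 CPM in any library, and no marker of any list was at 0 in all 12. The part of these cells in the results below was not tested, and in bulk RNA fewer cells of a type and less RNA per cell cannot be told apart.

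**Figure D1:**
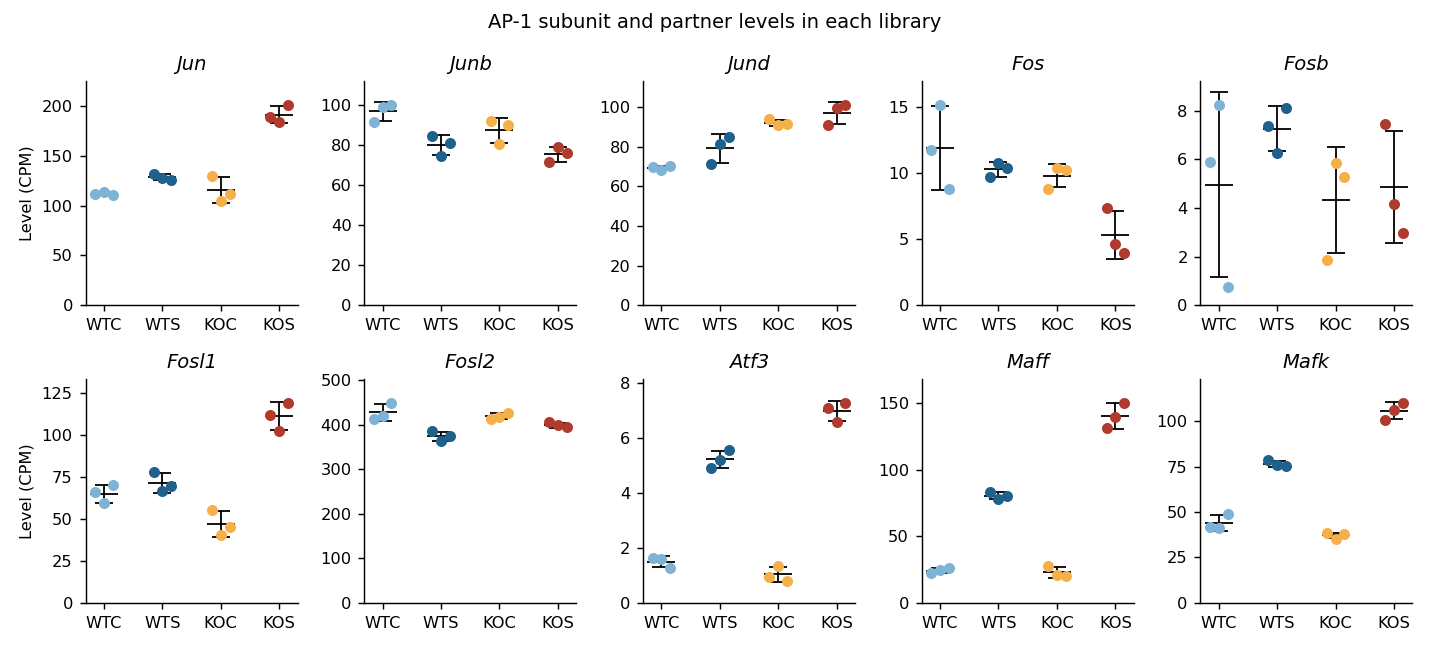
Level of each gene in CPM (vertical axes, each from 0) in the 12 libraries, with points for libraries and a bar with whiskers for the mean ± SD of the 3 libraries of a group. Maff, Mafk and Atf3 rose in both genotypes, Fosl1 stood at 102.2 to 119 CPM in KOS cells against 40.2 to 77.7 CPM in the other 9 libraries, and Fosb varied from 0.768 to 8.23 CPM within WTC cells alone.

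The question put to these genes was how senescence changed them with and without BMAL1. In WT cells, 5 of the 10 rose (Jun, Jund, Atf3, Maff and Mafk), 2 fell (Junb and Fosl2), and Fos, Fosb and Fosl1 did not pass. Among all genes tested, 29.2% passed higher and 27.0% lower. In KO cells, 5 rose (Jun, Fosl1, Atf3, Maff and Mafk) and 2 fell (Junb and Fos), against 28.5% and 28.6% of all genes. Atf3 and Maff were called, both higher, in WT cells, where 17.4% of all genes were called in either direction, and Atf3, Maff, Mafk and Fosl1, all higher, in KO cells, where 18.8% were. Senescent and control libraries did not overlap for 7 of the 10 genes in WT cells, beside 63.2% of all genes, and for 8 in KO cells, beside 61.6%, and neither count is read as a result about these genes. The interaction, the KO log2 fold change less the WT one, was passed by 5 of the 10, all higher (Jun, Fosl1, Atf3, Maff and Mafk), against 9.24% of all genes higher and 11.7% lower. The median interaction over the 10 genes was 0.32 on the log2 scale, beside -0.026 over all genes.

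Among the JUN genes, Jun was the only one to pass the interaction. Jun (ENSMUSG00000052684, GRCm38 chromosome 4, 95049034 to 95052222, minus strand) encodes the JUN partner that activates most strongly. Its level was 111.6, 113.3 and 110.3 CPM in WTC, 132, 127.6 and 126.1 CPM in WTS, 129.6, 104.9 and 111.9 CPM in KOC and 189.1, 184 and 200.9 CPM in KOS replicates 1 to 3. The 3 KOS libraries lay above all the others, and the WTS libraries lay above the WTC libraries by a smaller step. Senescence raised Jun by 0.20 ± 0.063 on the log2 scale in WT cells (adjusted p = 0.00938) and by 0.73 ± 0.063 in KO cells (adjusted p = 2.41e-09). The difference between these changes was 0.53 ± 0.089 (adjusted p = 0.000319). In control cells the genotypes overlapped, with a log2 difference of 0.047 and a 95% interval of -0.077 to 0.17.

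Junb, whose product can restrain JUN, moved the other way. Its level was 91.6, 99.0 and 100.1 CPM in WTC, 84.4, 74.8 and 81.0 CPM in WTS, 92.0, 80.5 and 90.1 CPM in KOC and 71.6, 79.0 and 75.9 CPM in KOS cells. Senescent and control libraries did not overlap in either genotype, although KOC replicate 2 and KOS replicate 2 were close. Junb fell by 0.28 ± 0.062 on the log2 scale in WT cells (adjusted p = 0.000768) and by 0.21 ± 0.063 in KO cells (adjusted p = 0.00646). The interaction was 0.063, with a 95% interval of -0.11 to 0.24. With scaling by total counts alone, which moved the median of all genes to 0.19 in WT and 0.15 in KO cells, neither fall passed.

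Jund, often the JUN gene of resting cells, differed between genotypes in both states. It stood at 69.7, 68.1 and 70.2 CPM in WTC, 71.1, 81.2 and 85.0 CPM in WTS, 93.8, 91.0 and 91.2 CPM in KOC and 90.9, 99.7 and 101 CPM in KOS cells. Every KO library lay above every WT library. The KO level was higher by 0.41 ± 0.062 on the log2 scale in control cells (adjusted p = 9.22e-05) and by 0.30 ± 0.061 in senescent cells (adjusted p = 0.000997). Senescence raised Jund by 0.19 ± 0.062 in WT cells (adjusted p = 0.0124), and this passed neither without WTS replicate 2 nor without WTS replicate 3 (adjusted p up to 0.102). The KO change was 0.080 (adjusted p = 0.275), and it passed with total count scaling. WT and KO cells came from different mice, so cell isolate and genotype cannot be told apart. The sources used here name no batch, so handling cannot be told apart from genotype either. Both limits hold for all genes in every comparison of genotypes, the interaction included. Gm11175, on the other strand over 877 bases of Jund, was listed at 0 in every library.

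The FOS genes split by member. Fosl1 rose in KO cells, Fos fell in KO cells, Fosl2 fell slightly in WT cells, and Fosb passed no comparison. Fosl1 (ENSMUSG00000024912, GRCm38 chromosome 19, 5447547 to 5455946, plus strand) encodes FRA-1, which is induced through ERK signalling. Its level was 65.7, 59.2 and 69.9 CPM in WTC, 77.7, 66.6 and 69.5 CPM in WTS, 55.5, 40.2 and 45.0 CPM in KOC and 111.8, 102.2 and 119 CPM in KOS cells. The WT groups overlapped, the KOC libraries were the lowest and the KOS libraries the highest. The KO senescence change was 1.25 ± 0.11 on the log2 scale, a fold of 2.37 (adjusted p = 3.37e-07), and the WT change was 0.14 with a 95% interval of -0.073 to 0.34. With total count scaling the WT change was 0.31 and passed (adjusted p = 0.0261). The interaction of 1.11 ± 0.15 (adjusted p = 0.000294) was the only one called among the 10 genes, and 3.66% of all genes were called there in either direction. Part of that difference lay in control cells, where Fosl1 was lower in KOC by 0.47 ± 0.11 (adjusted p = 0.0126), and this did not pass without WTC replicate 3 or without KOC replicate 3 (adjusted p up to 0.0603). In senescent cells Fosl1 was higher in KO by 0.64 ± 0.10 (adjusted p = 0.000637). Its exons share 1163 bases with Ccdc85b on the other strand, and the use of strand in counting is not given in the sources used here. Ccdc85b had means of 28.5, 28.1, 30.1 and 30.2 CPM in WTC, WTS, KOC and KOS cells.

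Fosl2, which encodes FRA-2, had the highest CPM of the 10 genes and small differences between groups. It stood at 413.7, 419.1 and 449.1 CPM in WTC, 384.6, 363.5 and 373.8 CPM in WTS, 413, 417.3 and 426.2 CPM in KOC and 405, 398.2 and 394 CPM in KOS cells. Senescent libraries lay below control libraries in both genotypes. The WT fall was 0.19 ± 0.048 on the log2 scale (adjusted p = 0.00167) and did not pass with total count scaling. The KO difference was -0.070 (adjusted p = 0.22), and it was 0.083 with total count scaling, so its sign depended on the scaling.

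Fos, the classic immediate early gene, was low in every group at this time point. Its level was 11.7, 15.1 and 8.76 CPM in WTC, 9.66, 10.8 and 10.4 CPM in WTS, 8.76, 10.4 and 10.2 CPM in KOC and 7.33, 4.61 and 3.92 CPM in KOS cells. The KOS libraries lay below the other 9. Fos fell in KO cells by 0.90 ± 0.22 on the log2 scale (adjusted p = 0.00254) and was lower in KOS than in WTS cells by 0.97 ± 0.21 (adjusted p = 0.00439). The WT change was -0.21 (adjusted p = 0.406). The interaction of -0.69 did not pass (adjusted p = 0.124), but it passed without WTC replicate 2, without KOS replicate 1 and without the filter on low counts, so the 2 changes were not shown to differ in the test as fitted.

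Fosb, a close relative of Fos, ranged widely within WTC, KOC and KOS cells and less within WTS cells. It was at 5.87, 8.23 and 0.768 CPM in WTC, 7.38, 6.26 and 8.10 CPM in WTS, 1.84, 5.86 and 5.28 CPM in KOC and 7.45, 4.15 and 2.97 CPM in KOS cells. WTC replicate 3 and KOC replicate 1 were the lowest libraries. The senescence log2 difference was 0.53 in WT cells, with a 95% interval of -0.80 to 1.87. It was 0.15 in KO cells, with an interval of -1.23 to 1.53. Changes within these intervals, in either direction, were not excluded at this spread.

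The largest changes were in Maff, Atf3 and Mafk. Maff (ENSMUSG00000042622, GRCm38 chromosome 15, from 79346621 to 79359076, plus strand) encodes a stress-inducible small MAF. It rose from 22.3, 24.4 and 26.1 CPM in WTC to 83.1, 78.0 and 80.2 CPM in WTS cells, and from 27.8, 20.7 and 20.5 CPM in KOC to 131, 139.6 and 150.1 CPM in KOS cells. The control groups overlapped, all senescent libraries lay above them, and all KOS libraries lay above all WTS libraries. These were log2 changes of 1.73 ± 0.096 in WT cells (3.32-fold, adjusted p = 1.86e-10) and 2.61 ± 0.096 in KO cells (6.11-fold, adjusted p = 9.0e-13). The interaction was 0.88 ± 0.13 (adjusted p = 0.000312).

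Mafk, another small MAF, which pairs with CNC factors such as NFE2L2 (NRF2), followed the same order of groups. Its level was 41.9, 41.0 and 48.8 CPM in WTC, 78.5, 76.0 and 75.1 CPM in WTS, 38.2, 35.3 and 37.9 CPM in KOC and 100.8, 106.2 and 110.1 CPM in KOS cells. No 2 groups overlapped. The log2 change was 0.80 ± 0.064 in WT cells (adjusted p = 8.45e-10) and 1.51 ± 0.065 in KO cells (adjusted p = 3.08e-14), and the interaction was 0.71 ± 0.090 (adjusted p = 2.5e-05). Mafk was lower in KOC than in WTC cells by 0.24 ± 0.066 (adjusted p = 0.018), which did not pass without WTC replicate 3 or without KOC replicate 2 (adjusted p up to 0.115).

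Atf3 stayed low even where it rose. Its level was 1.65, 1.59 and 1.26 CPM in WTC, 4.93, 5.22 and 5.56 CPM in WTS, 0.96, 1.35 and 0.816 CPM in KOC and 7.10, 6.60 and 7.30 CPM in KOS cells. Senescent libraries lay above all control libraries, and the KOS libraries lay above the WTS libraries. The log2 change was 1.80 ± 0.19 in WT cells (3.47-fold, adjusted p = 8.0e-08) and 2.73 ± 0.20 in KO cells (6.61-fold, adjusted p = 1.82e-10). The interaction of 0.93 ± 0.28 passed (adjusted p = 0.0227), but it did not pass without WTC replicate 1, WTS replicate 1, KOC replicate 3 or KOS replicate 3, nor with a block for replicate number within genotype (adjusted p up to 0.0777). Between KOS and WTS cells the difference of 0.42 did not pass (adjusted p = 0.0767), and it passed with DESeq2 and in a fit of those groups alone.

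**Figure D2:**
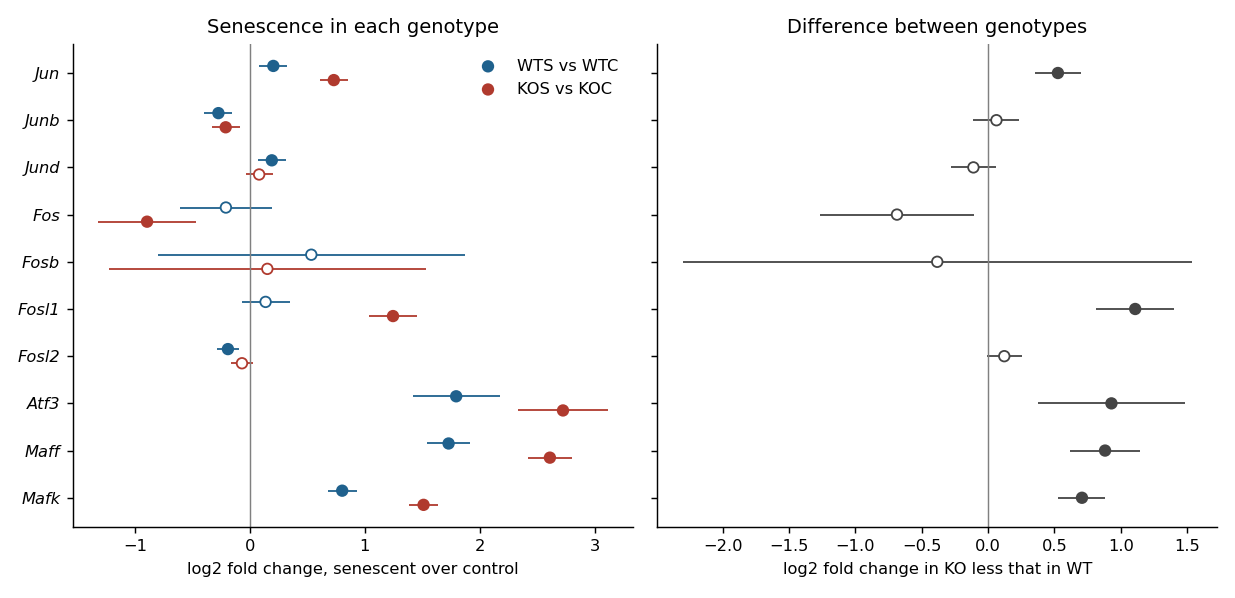
Log2 fold change of senescent over control cells in WT and in KO (left) and the KO change less the WT change (right) for each of the 10 genes, with 95% intervals from edgeR's test over all 12 libraries and filled points where the adjusted p was under 0.05. Jun, Fosl1, Atf3, Maff and Mafk were higher in the right panel with filled points, and the Fosb intervals spanned 0 widely.

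Between genotypes, 1 gene was higher (Jund) and 2 were lower (Fosl1 and Mafk) in KOC than in WTC cells, where 8.07% of all genes passed higher and 4.96% lower. In senescent cells, 5 were higher in KO (Jun, Jund, Fosl1, Maff and Mafk) and Fos was lower, where 11.9% of all genes passed higher and 11.8% lower. None of the 10 was called in either comparison, where 2.54% and 3.48% of all genes were. The background in control cells rested on single libraries: 237 genes were called higher and 205 lower there, against 211 and 542 without WTC replicate 3 and 196 and 87 without WTC replicate 1. The genes that passed there, 1405 higher and 864 lower, were 1296 and 957 without WTC replicate 3, 911 and 497 without WTC replicate 1, 981 and 462 without KOC replicate 2 and 1055 and 437 without KOC replicate 3. Libraries of the genotypes did not overlap for 3 of the 10 genes in control cells, beside 25.9% of all genes, and for 8 in senescent cells, beside 42.0%. Of the senescent differences that passed by edgeR, 4 were higher in KO by over 0.4 on the log2 scale, namely Maff at 0.80 ± 0.087 (adjusted p = 6.83e-06), Fosl1 and Jun at 0.64 and 0.57 and Mafk at 0.47 ± 0.062 (adjusted p = 1.11e-05). The comparisons share groups with those within genotype and are given beside them. The limits on cell isolate and handling given for Jund hold here too.

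Levels per kb allow genes to be set against each other, but their order depended on the length used. Overlap with a gene on the other strand covered 1163 of 2033 exon bases of Fosl1 and 877 of 1668 of Jund. Since strand use in counting is not given, the levels per kb and family shares of Fosl1 and Jund carry this further limit. Its size was not tested. With the union of exons as length, in WTC cells Fosl2 (44.1 CPM per kb), Junb (42.1) and Jund (41.6) led, with overlapping libraries between neighbours, followed by Jun (35.0), Fosl1 (31.9), Mafk (11.3), Maff (9.36), Fos (5.04), Fosb (0.79) and Atf3 (0.70). In KOS cells Jun (60.0), Jund (58.3), Fosl1 (54.6) and Maff (54.1) led, each overlapping the next, and Fosl2 (41.2), Junb (32.8), Mafk (27.1), Atf3 (3.25), Fos (2.25) and Fosb (0.78) followed. In WTS cells Jund led at 47.4 CPM per kb, and Jun, Fosl2, Fosl1 and Junb lay between 40.3 and 34.8 with each overlapping the next. In KOC cells Jund led at 55.2 CPM per kb, above Fosl2 at 43.3. With the longest transcript as length, an alternative chosen after seeing the data, Fosl2 led in WTC (65.4 CPM per kb), WTS (57.2) and KOC cells (64.1), with Junb next in WTC (53.6) and Jund next in WTS (47.4) and KOC cells (55.2). On that length Maff led in KOS cells at 71.6 CPM per kb, before Fosl2 (61.0), Jun (60.0), Fosl1 (59.6) and Jund (58.3), and had rank 7 in both control groups and rank 4 in WTS cells, beside ranks 7, 6 and 4 in control, WTS and KOS cells with the union of exons. Fos, Fosb and Atf3 held the lowest 3 ranks in every group with either length.

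The make-up of each family was then taken as each gene's share of the family sum of CPM per kb. The JUN family summed to 119 ± 1.88 (SD, n = 3) in WTC, 122.5 ± 2.77 in WTS, 129 ± 7.23 in KOC and 151 ± 5.87 CPM per kb in KOS cells. Junb made up 35.5% ± 1.14 of it in WTC, 28.4% ± 1.81 in WTS, 29.4% ± 0.913 in KOC and 21.7% ± 0.80 in KOS cells, and Jun 29.5% ± 0.639, 32.9% ± 1.42, 27.9% ± 1.55 and 39.7% ± 1.53. Jund held 35.0% ± 0.818 in WTC, 38.7% ± 2.90 in WTS, 42.7% ± 1.76 in KOC and 38.6% ± 0.899 in KOS cells. The FOS family summed to 81.9 ± 2.37, 79.2 ± 3.72, 71.2 ± 2.89 and 98.9 ± 4.17 CPM per kb in the same order. Fosl1 made up 39.0% ± 2.29 in WTC, 44.2% ± 1.49 in WTS, 32.3% ± 4.12 in KOC and 55.2% ± 2.26 in KOS cells, and Fosl2 53.9% ± 1.03, 48.8% ± 0.935, 60.9% ± 2.86 and 41.8% ± 1.83. Fos and Fosb together were a small remainder, with Fos at 2.27% ± 0.737 in KOS cells. Fosl1 shares did not overlap between senescent and control cells of either genotype (exact two-sided permutation p = 0.1 in each, the smallest that 3 against 3 libraries can give). For Jund the same exact test gave p = 0.2 in WT and 0.1 in KO cells. Fosl1 ranked above Fosl2 in KOS cells with the union of exons as length. With the longest transcript as length, Fosl1 was at 47.8% and Fosl2 at 49.1% there, so their order depended on the length used.

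**Figure D3:**
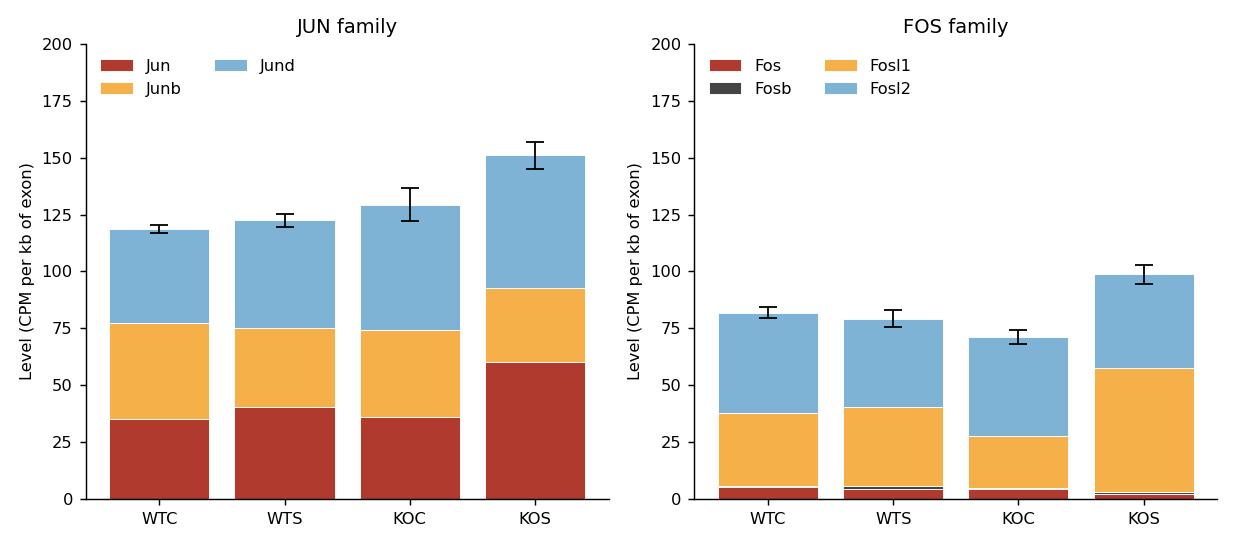
Stacked levels of the JUN genes (left) and FOS genes (right) in CPM per kb of exon, as group means, with whiskers for the SD of the family sum over 3 libraries. The FOS sum was 98.9 CPM per kb in KOS cells and 71.2 in KOC cells, with the difference mostly in Fosl1, and the Jun segment was largest in KOS cells.

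Genes around AP-1 were then counted in lists chosen by textbook role, but with earlier results of these data known, so the counts are a description. The counts stand beside shares over all genes of 29.2% that rose and 27.0% that fell in WT cells, 28.5% and 28.6% in KO cells, and 9.24% higher and 11.7% lower in the interaction. Of 21 textbook AP-1 targets, 10 rose and 7 fell with senescence in WT cells, and 16 rose and 2 fell in KO cells. The interaction was passed by 14, all higher, with 7 called (3.66% of all genes were called in either direction), and its median was 0.79 on the log2 scale beside -0.026 over all genes. Leaving out any 1 library gave 13 to 15. Lif, a cytokine gene of the IL-6 family, rose by a log2 fold change of 2.88 ± 0.17 in KO cells (adjusted p = 2.74e-09) and had an interaction of 1.60 ± 0.23 (adjusted p = 0.000401). Hbegf, which encodes an EGF receptor ligand, had an interaction of 1.51 ± 0.24 (adjusted p = 0.00263). The stromelysin gene Mmp3 rose by 1.66 ± 0.073 in WT cells (adjusted p = 8.34e-14) and by 2.11 ± 0.072 in KO cells (adjusted p = 1.47e-15), and cyclin D1 (Ccnd1) rose by 1.41 ± 0.065 in WT cells (adjusted p = 1.08e-13). Il6 went against these, with a fall in KO cells of 1.01 ± 0.16 on the log2 scale (adjusted p = 1.16e-05). Ereg, another EGF receptor ligand gene, was lower in KOC than in WTC cells by 1.11 ± 0.092 (adjusted p = 1.19e-06).

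MAP kinase feedback inhibitors, which ERK and stress kinases induce and which shut those kinases off, also held more genes that rose in KO than in WT cells. Of 16, 6 rose and 4 fell in WT cells, shares near those of all genes, and 12 rose and none fell in KO cells. The interaction was passed by 9, all higher, and by 5 without WTS replicate 3, KOC replicate 2, KOC replicate 3 or KOS replicate 3. Spry4, a Sprouty inhibitor of receptor tyrosine kinase signalling, rose by a log2 fold change of 1.29 ± 0.18 in WT (adjusted p = 2.25e-06) and 2.10 ± 0.18 in KO cells (adjusted p = 2.35e-09). The phosphatase gene Dusp4 rose by 1.20 ± 0.14 in WT cells (adjusted p = 1.45e-07) and 1.58 ± 0.13 in KO cells (adjusted p = 1.01e-09), with an interaction that did not pass (0.37, adjusted p = 0.173). Dusp1, another such phosphatase gene, rose by 0.86 ± 0.059 in WT cells (adjusted p = 8.97e-11) and 1.73 ± 0.061 in KO cells (adjusted p = 1.82e-15). With total count scaling, 10 of these inhibitors rose and none fell in WT cells.

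Of 22 other immediate early genes, 5 rose and 8 fell in WT cells, 12 rose and 2 fell in KO cells, and the interaction was passed by 13 higher and 1 lower. With total count scaling 8 rose and 6 fell in WT cells, so the balance there turned, and the interaction counts were as before. Ccn2, a matricellular protein gene, rose by a log2 fold change of 1.05 ± 0.071 in WT cells (adjusted p = 3.08e-10) and 1.38 ± 0.071 in KO cells (adjusted p = 5.62e-12). The antiproliferative gene Btg2 rose by 1.10 ± 0.080 in WT cells (adjusted p = 1.9e-10) and Klf4 by 1.22 ± 0.082 in KO cells (adjusted p = 4.59e-10). Klf2 fell by 1.01 ± 0.10 in WT cells (adjusted p = 3.58e-08) and by 1.15 ± 0.10 in KO cells (adjusted p = 3.99e-09).

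The counts of kinases and other factors depended on the scaling. Of 17 MAP kinases and their direct activators, 5 rose and 5 fell in WT cells and 4 rose and 3 fell in KO cells, and 4 were higher and 1 lower in the interaction. The count of 5 that rose in WT cells became 2 without WTC replicate 1 and 3 without WTS replicate 1, and the 3 that fell in KO cells became 5 without KOS replicate 3. With total count scaling, 8 rose and 4 fell in WT cells and 8 rose and 1 fell in KO cells. Mapk13 (p38 delta) rose in KO cells by a log2 fold change of 1.38 ± 0.11 (adjusted p = 1.95e-08). Of 17 other bZIP partners, 15 were tested, of which 6 rose and 2 fell in WT cells, 6 rose and 5 fell in KO cells, and 3 were higher and 5 lower in the interaction. With total count scaling 9 of them rose and 2 fell in WT cells. Ddit3, which encodes the stress factor CHOP, rose by 1.58 ± 0.061 in WT (adjusted p = 8.12e-15) and 1.63 ± 0.059 in KO cells (adjusted p = 2.62e-15). Of 10 SRF, TCF and MEF2 factors, 2 rose and 4 fell in each genotype, and 1 was higher and 1 lower in the interaction. With total count scaling the balance turned, to 5 that rose and 2 that fell in WT cells and 4 that rose and 1 that fell in KO cells. The lower gene was Mef2c, at -1.18 ± 0.13 (adjusted p = 8.31e-06). The interaction counts of this list became 2 higher without WTC replicate 2 and 3 higher and 2 lower without KOC replicate 1, and the 2 that rose in KO cells became 1 without KOC replicate 2. The chondrocyte marker sums given above differed between the same groups as these lists did.

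**Figure D4:**
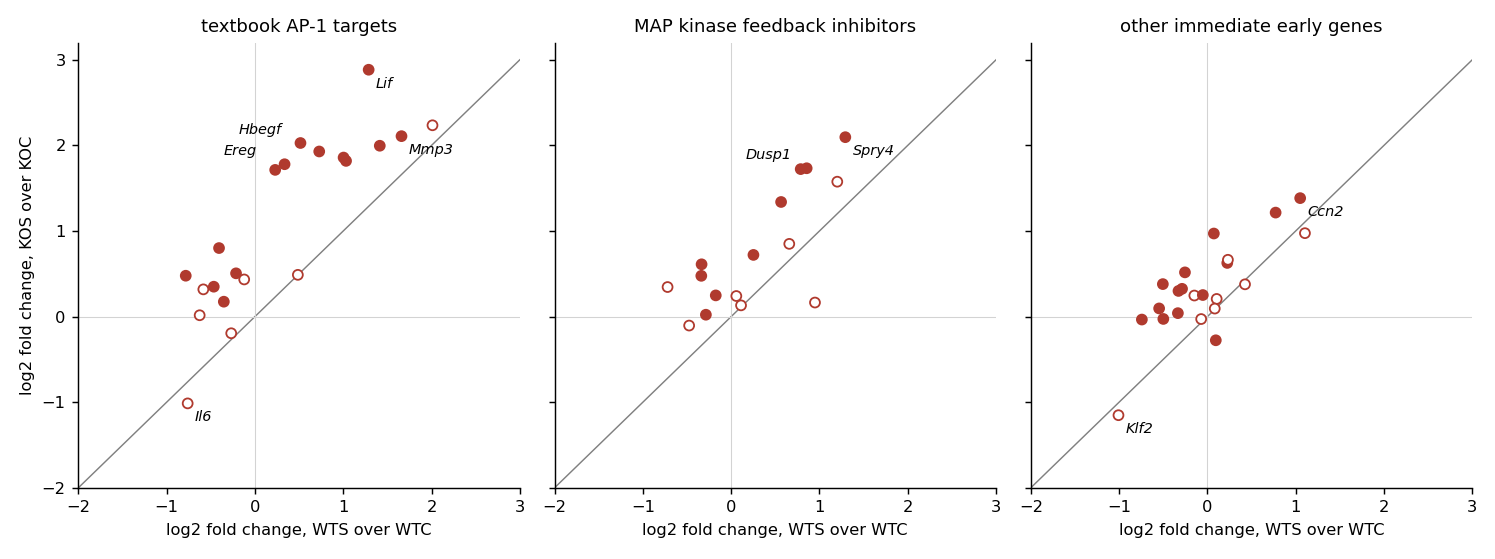
Log2 fold change of senescent over control cells in WT (horizontal) and KO (vertical) for the genes of 3 lists, with the line of equal change and filled points where the interaction had an adjusted p under 0.05. For the textbook AP-1 targets, 14 of 21 points were filled and all 14 lay above the line, as did all 9 filled points among the MAP kinase feedback inhibitors and 13 of 14 among the other immediate early genes.

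The genes most like each member over the 12 libraries, by Pearson r of log2 CPM among 10937 genes whose mean level was at least 5 CPM, are given as a description, since the libraries fall into 4 groups. They were Trim16 (r = 0.988) and Ptp4a2 (0.983) for Jun, Ciao2b (0.942) and Ssu72 (0.940) for Junb, Cyp51 (0.953) and Cish (0.946) for Jund, and Atp1b2 (0.946) and Tox (0.946) for Fos. For Fosl1 they were Epha2 (0.996) and Tnk2 (0.992), for Fosl2 Itpr3 (0.965) and Cep170 (0.961), and for Fosb 2510009E07Rik (0.875) and D430042O09Rik (0.871). For Atf3 they were Ces2e (0.988) and Epas1 (0.987), for Maff Pdlim5 (0.996) and Pttg1ip (0.996), and for Mafk Otud1 (0.998) and Gmfb (0.995). After removal of group means, r was 0.491 for Jund with Cyp51, 0.545 for Jund with Cish and 0.625 for Atf3 with Ces2e. The rest then lay between 0.701 (Maff with Pttg1ip) and 0.963 (Fosb with 2510009E07Rik). Among the members themselves, Fosl1 had r = 0.893 with Jun, 0.872 with Maff and 0.906 with Mafk, and Fos had 0.336 with Fosb. With group means removed, these were 0.834, 0.753, 0.614 and 0.811. Maff had r = 0.886 with Jun and 0.989 with Mafk, and 0.818 and 0.565 with group means removed. That of Fos with Mafk went from -0.702 to -0.831. Some other pairs did not hold within groups. Atf3 had r = 0.963 with Maff, 0.961 with Mafk, 0.824 with Fosl1 and 0.776 with Jun. With group means removed, these were -0.286, -0.692, -0.457 and -0.305, and that of Jun with Mafk went from 0.870 to 0.314.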

How the data were processed

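Poly(A) RNA libraries were sequenced as paired reads, and per the labels and the study's methods the authors trimmed reads with Trimmomatic 0.36, mapped them with STAR 2.5.2b to GRCm38 and counted unique exonic reads with featureCounts. The deposited values were raw counts per gene and library, in 2 tables, 1 for each genotype. The annotation release and the use of strand in counting are not given in the sources used here. Dropping multi-mapped reads lowers counts of genes with near-identical copies. Symbols matched 48970 of 49315 identifiers and GENCODE coordinates 49056.

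Genes were kept with filterByExpr (17416) and tested with edgeR 4.0.16 in R 4.3.3, by a robust quasi-likelihood F-test with TMM factors, over all 12 libraries with 1 mean per group. Within each of the 5 comparisons, p-values received a Benjamini-Hochberg adjustment across all tested genes. The SE is the size of the log2 fold change divided by the square root of F. Fold changes were called over 1 in size at an adjusted p under 0.05, the study's thresholds. Alternatives were DESeq2 1.42.0, other scaling, no filter, replicate blocks, the compared groups alone and leaving out each library. The fit was tested on simulated data. Replicate libraries differed by more than sampling noise (chi-square per degree of freedom 3.03 to 17.4), so none was counted as a duplicate. Without molecular identifiers, floors cover counting error only.

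The members and lists were chosen with earlier results of these data known. Named genes were the 10 members, Arntl, up to 2 called genes with the largest change per list, comparison and direction at a mean of at least 5 CPM, and the 2 most similar genes per member. Ccdc85b and Gm11175 were named for their overlap with members. Shorter overlaps on the other strand were those of Junos with Jun (232 bases), Prdx2 with Junb (173) and Tmem184a with Mafk (169). The part of these overlaps in the counts was not tested. Promoters were from RefSeq (GRCm38.p6).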

Additional observations from a re-analysis of the deposited data

Results flagged for a closer look

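The senescence response of 5 of the 10 genes differed between genotypes by the test of the interaction (edgeR, adjusted over all genes). Among all genes, 9.24% passed it higher and 11.7% lower. The KO log2 fold change exceeded the WT one by 1.11 for Fosl1 (adjusted p = 0.000294), 0.93 for Atf3 (adjusted p = 0.0227), 0.88 for Maff (adjusted p = 0.000312), 0.71 for Mafk (adjusted p = 2.5e-05) and 0.53 for Jun (adjusted p = 0.000319). The Atf3 interaction did not pass without WTC replicate 1, WTS replicate 1, KOC replicate 3 or KOS replicate 3, nor with a replicate block within each genotype (adjusted p up to 0.0777). In all 5, every KOS library lay above every WTS library, and these groups did not overlap in either direction for 42.0% of all genes. The direct KOS against WTS difference for Atf3, 0.42, did not pass (edgeR, adjusted p = 0.0767). Chondrocyte marker sums differed between the same groups, from 2048 to 2361 CPM in WTS and 641.1 to 737.2 CPM in KOS libraries, and their part in these differences was not tested.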

How the results depend on the processing

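The 10 genes were refitted under each alternative, and of the values for single genes 889 kept their direction and side of the threshold, 14 no longer passed, 9 newly passed and 8 changed sign. When each library was left out in turn, values that changed sign ranged from -0.28 to 0.44 for Fosb in KO senescence, -0.95 to 0.10 for the Fosb interaction, -0.69 to 0.36 for Fosb in KOC against WTC, -0.042 to 0.11 for Jun there and -0.051 to 0.012 for Fosl2 there. Fosl2 in KO senescence was 0.083 with total count scaling. None of these had passed. With no fold change threshold, the genes counted were 5 higher and 2 lower in WT senescence, 5 higher and 2 lower in KO senescence, 5 higher in the interaction, 1 higher and 2 lower in control cells and 5 higher and 1 lower in senescent cells. Leaving out 1 library moved called counts from 0 to 1 lower in KO senescence (without KOS replicate 1) and in KOS against WTS (without WTS replicate 1 or KOS replicate 1), which was Fos each time, and from 1 to 2 higher in the interaction (without WTC replicate 3, KOC replicate 1 or KOC replicate 2). Total count scaling gave 1 lower in KOS against WTS. It changed the split of all genes that passed from 5093 higher and 4702 lower to 7000 and 3213 in WT, and from 4964 and 4983 to 6703 and 3618 in KO.

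Same-numbered libraries of a genotype had correlations of -0.125 to 0.108 between their deviations from the group means (6 pairs), so the numbers did not pair them. With a replicate block over all libraries, the Jun interaction was 0.53, and 2 genes were called higher in WT and 4 in KO senescence, as without it. A replicate block within each genotype ended the Atf3 interaction only. List counts refitted without each library and with total counts were alternatives chosen after seeing the data.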
